A study of Mus musculus with 8 samples.

Results

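The mitochondrial respiratory chain was followed in mouse liver through the RNA of the genes that encode it. Its genes were taken by symbol, as every symbol of the mitochondrial genome (mt-) and the nuclear symbols of the Nduf, Sdh, Uqcr, Cyc1, Cycs, Cox4 to Cox8 and Atp5 families, where the mean over the libraries was at least 10 counts. Of 19267 genes in the count table, 130 symbols matched and 119 reached that mean, and all 119 were among the 13993 genes tested. The mitochondrial genome gave 23 of them, which were 13 mRNAs, 2 rRNAs and 8 tRNAs. The nuclear genome gave 96, which were 83 subunits, 8 complex I assembly factors (Ndufaf1 to Ndufaf8) and 5 pseudogenes or pseudogene-like copies. The 11 matching symbols under the mean were Cox6a2, Cox6c2, Ndufb4c, Atp5k-ps2, Atp5l2-ps, Cox7c-ps1, Ndufs5-ps, mt-Tc, mt-Ti, mt-Tm and mt-Tn. Cox4i2 and Cox8b were not analysed here.

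The respiratory chain passes electrons from NADH, through complex I, and from succinate, through complex II, to ubiquinone, then through complex III and cytochrome c to complex IV, which reduces oxygen. Complexes I, III and IV pump protons, and complex V (ATP synthase) uses the gradient to make ATP. Complex II is built from nuclear genes alone, whereas the other complexes combine subunits made in the cytosol with core subunits encoded by the mitochondrial genome, which is copied into long RNAs from both strands and then cut into mRNAs, rRNAs and tRNAs. Hepatocytes are rich in mitochondria, and reoxidation of the NADH formed from ethanol depends on this chain.

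The 8 libraries came from livers of male C57BL/6 mice, 6 weeks old at the start and 9 weeks old at sampling, that were fed a Lieber-DeCarli liquid diet for 21 days. The diet held 5% (w/v) alcohol in the EtOH groups and isocaloric maltose dextrin in the control groups. Elf4-/- denotes Elf4fl/fl-Villin-Cre mice, in which the transcription factor gene Elf4 is deleted by Cre under the villin promoter, that is in intestinal epithelium and not in the liver cells that were sequenced, and per the study's methods the WT mice carried Cre too. Each of the 4 groups (each genotype on each diet) had 2 libraries, and nothing in the labels says that the 2 came from separate animals, so p-values measure only the spread between these libraries.

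Library totals ran from 6171051 to 9157362 counts. Elf4 itself had 6 and 11 counts on the control diet and 27 and 36 on the EtOH diet in WT mice, and 12 and 6 against 14 and 34 in Elf4-/- mice, which does not check the genotype labels, since the deletion lies in another tissue. All 10 hepatocyte markers were present, and their summed level was lower on the EtOH diet in both genotypes. In WT it was 69805 to 96956 CPM on the control diet against 51221 to 59280 on the EtOH diet. In Elf4-/- mice it was 81403 to 91689 CPM against 58617 to 74896. CPM is counts divided by the library total and scaled up, with TMM, a correction for libraries that differ in composition. Gene by gene, none of the 10 passed the test in Elf4-/- mice, against 1.71% of all genes higher and 1.18% lower. Of the 10, 4 had a positive log2 change and the median was -0.08. The 8 macrophage and Kupffer cell markers summed to 578 and 639 CPM in WT-EtOH, against 188 and 255 in WT-Control, and to 175 and 181 against 234 and 243 in Elf4-/- mice on the control and EtOH diets, and 7 of the 8 passed the test as higher in WT-EtOH than in WT-Control. In this comparison 10.8% of all genes passed as higher and 10.8% as lower. The macrophage and Kupffer cell list thus moved with the EtOH diet in WT. Of the 10 hepatocyte markers 1 passed as lower, which is near that share, with a median log2 change of -0.52. The part of both lists in the results was not tested. The libraries come from bulk tissue, so a shift in the number of cells of a type and a shift in RNA per cell cannot be told apart.

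Because the results turn on reads from the mitochondrial genome, its nuclear copies are shown first. A stretch of the minus strand of chromosome 1, from chr1:24611535-24616197 in GRCm38, holds 7 annotated pseudogenes that copy mitochondrial genes over their whole length or part of it. Gm10925 matched mt-Atp6 (chrM, 7927 to 8607) at all of 678 aligned bases, Gm28661 matched mt-Co2 at 681, Gm28437 matched mt-Co3 at 783, Gm10222 matched mt-Nd4l at 294 and Gm28439 matched mt-Nd4 at 876 of its 1378 bases. The first 60 bases of mt-Atp6 are therefore also those of its copy, so a read from them fits both genes equally.

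mt-Atp6 and Gm10925: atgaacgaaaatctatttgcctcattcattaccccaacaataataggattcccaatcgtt

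Gm28438 differed from mt-Nd3 at 1 of 345 bases and Gm29216 from part of mt-Co1 at 6 of 492. Capitals mark the bases that differ, with positions counted from the first base of the mitochondrial gene, T3C in mt-Nd3 and T1056A, C1057T, A1059G, A1060G, C1062A and A1066T in mt-Co1.

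mt-Nd3: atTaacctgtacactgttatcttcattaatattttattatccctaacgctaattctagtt
Gm28438: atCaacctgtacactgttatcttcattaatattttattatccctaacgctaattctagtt
mt-Co1: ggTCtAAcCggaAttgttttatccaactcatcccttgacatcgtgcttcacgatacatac
Gm29216: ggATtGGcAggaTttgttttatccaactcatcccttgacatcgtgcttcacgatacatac

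The copies held counts of their own. Gm10925 had 0.298 to 3.54 counts for each count of mt-Atp6, Gm28661 had 0.214 to 2.77 for each count of mt-Co2, and Gm28438 had 0.856 to 11.7 for each count of mt-Nd3, with different ratios in libraries of the same group. How reads with more than 1 possible origin were counted was not stated. The values of mt-Co2, mt-Atp6, mt-Co3, mt-Nd3 and mt-Nd4l are therefore uncertain. mt-Atp8 shares 21.1% of its bases with mt-Atp6, so its value is uncertain too. Gm13340, Gm13341 and Gm13339 on chromosome 2 copy mt-Co1, mt-Co2 and part of mt-Nd2 with 97.61%, 95.83% and 96.67% identity. By contrast, mt-Nd1, mt-Nd2, mt-Co1, mt-Nd4, mt-Nd5, mt-Nd6 and mt-Cytb held far more counts, which need not mean more RNA. For mt-Nd4 the copy held only 0.00232 to 0.0176 counts per count of the gene, and the 7 copies together held 0.625% to 1.54% of the counts of the mitochondrial genome. Reads left uncounted because they fit more than 1 gene would enter neither side of these values, which therefore do not measure such a loss.

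**Figure D1:**
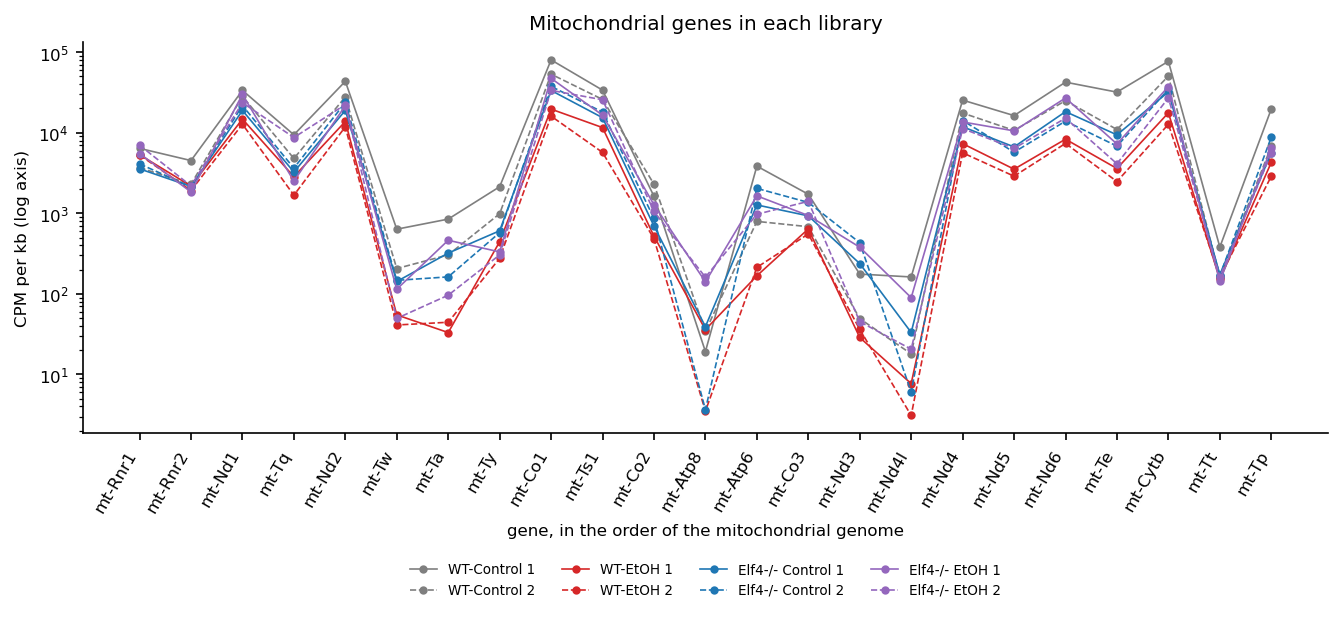
Level of the 23 mitochondrial genes in each library, in CPM per kb of transcript on a log axis, with genes in the order in which they lie in the mitochondrial genome and 1 line per library (solid for replicate 1, broken for replicate 2). The WT-EtOH libraries run lowest over most mRNAs and WT-Control 1 highest, whereas the libraries lie close together at mt-Rnr1, and the lines cross at mt-Atp8, mt-Nd3 and mt-Nd4l.

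Transcripts of the mitochondrial genome were the most variable part of the chain. In WT mice they took 33.7% and 23.4% of all counts on the control diet and 12.5% and 10.8% on the EtOH diet. In Elf4-/- mice the shares were 18.7% and 18.5% against 22.1% and 18.3%. The mean share was 28.6% ± 7.26 (SD, n = 2) in WT-Control and 11.7% ± 1.25 (n = 2) in WT-EtOH, against 18.6% ± 0.176 and 20.2% ± 2.69 (n = 2 each) in the Elf4-/- groups. Both WT-EtOH libraries lay below every other library, and both WT-Control libraries lay above every other. The WT-Control libraries lay further apart than those of any other group, and replicate 1 was the higher of them for 11 of the 13 mRNAs and for all 8 tRNAs.

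The first question was what the EtOH diet did in WT mice. Of the 119 genes, 22 were higher in WT-EtOH and 20 were lower by edgeR's quasi-likelihood test (adjusted p under 0.05), against 10.8% of all 13993 genes higher and 10.8% lower. The genome of origin divided them. All 22 that rose were nuclear, and 16 of the 20 that fell were mitochondrial, namely 10 of 13 mRNAs and 6 of 8 tRNAs. The median log2 change was -1.90 over the 13 mRNAs, -2.0 over the 8 tRNAs and 0.22 over the 83 nuclear subunits, against 0.01 over all genes tested. Scaling by library totals in place of TMM moved the median of all genes by 0.43, and the medians of the mRNAs and of the nuclear subunits were then -1.47 and 0.65. Without WT-EtOH replicate 2 the calls were 10 higher and 1 lower (mt-Co2), without WT-EtOH replicate 1 they were 14 and 7, and without WT-Control replicate 1 they were 13 and 15. All 42 kept their sign when each library was left out in turn, and 11 kept their call each time. DESeq2's Wald test called 44 of the members, 22 in each direction, against 20.1% of all genes in either direction.

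**Figure D2:**
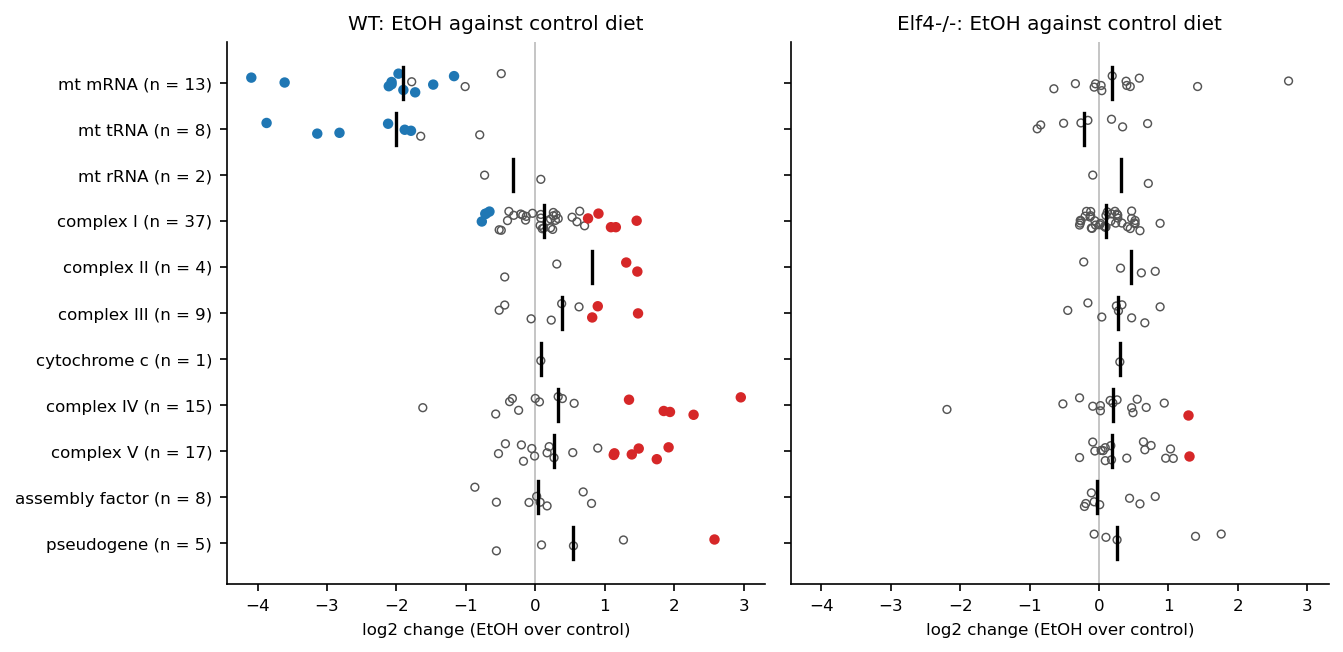
Log2 change with the EtOH diet in WT (left) and Elf4-/- mice (right) for each of the 119 genes, grouped by genome of origin and complex. Filled points passed edgeR's test (red higher, blue lower), open points did not, and black bars are group medians. In WT the mitochondrial mRNAs and tRNAs lie left of zero with 16 of 21 filled, each nuclear complex holds filled and open points, and in Elf4-/- mice 2 points are filled.

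mt-Co1, which encodes the catalytic subunit of complex IV, held the most counts of all members. It measured 123854 and 82375 CPM in WT-Control against 30320 and 24804 CPM in WT-EtOH, a log2 change of -1.90 ± 0.44 (SE, edgeR adjusted p = 0.0158). mt-Cytb, the cytochrome b of complex III and its only mitochondrial subunit, measured 88014 and 57776 CPM against 20203 and 14543 CPM, a log2 change of -2.07 ± 0.43 (edgeR adjusted p = 0.0104). Both genes were left in WT-EtOH at a fraction of their WT-Control level, 26.7% for mt-Co1 and 23.8% for mt-Cytb.

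Complex I has 7 mitochondrial subunits, which form the core of its membrane arm. Of these, 6 passed the test as lower, against 10.8% of all genes. mt-Nd5 measured 29754 and 19472 CPM in WT-Control against 6431 and 5264 CPM in WT-EtOH (log2 change -2.07 ± 0.40, edgeR adjusted p = 0.00779). Of the 6, mt-Nd1 changed least, from 32100 and 27078 CPM to 14131 and 12204 CPM (log2 change -1.17 ± 0.36, edgeR adjusted p = 0.0424). The groups did not overlap for either gene. mt-Nd1 did not pass when libraries were scaled by their totals alone or when the fit held a term for replicate number. With single libraries left out, its log2 change ran from -1.29 to -1.04, and its call was lost without any single WT or Elf4-/- Control library. mt-Nd2 and mt-Nd4 fell by 1.47 and 1.73 on the log2 scale, and mt-Nd4l gave -4.09 from 287 counts in WT-Control against 27 in WT-EtOH. Of the 287 counts, 258 were in WT-Control replicate 1, without which mt-Nd4l was at -1.77 and did not pass. mt-Nd3 (log2 change -1.78) did not pass.

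mt-Nd6 is the only mRNA of the other strand. It measured 22015 and 12979 CPM in WT-Control against 4313 and 3821 CPM in WT-EtOH, a log2 change of -2.11 ± 0.42 (edgeR adjusted p = 0.00854), close to that of mt-Nd5, its neighbour on the opposite strand. The count of mt-Nd6 was 0.667 to 0.78 of that of mt-Nd5 in all 8 libraries. Whether strand was used in counting is not known here, so reads from opposite strands of the same stretch cannot be told apart.

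The complex V subunit mt-Atp6 measured 2620 and 540 CPM in WT-Control against 114 and 145 CPM in WT-EtOH (log2 change -3.61 ± 0.65, edgeR adjusted p = 0.00578). The WT-Control libraries lay far apart. Without WT-Control replicate 1 the change was -2.07. mt-Co2 of complex IV measured 1111 and 1571 CPM against 355 and 330 CPM (log2 change -1.97 ± 0.27, edgeR adjusted p = 0.00248), but lost its call when the counts of the chromosome 1 copies were added to those of their mitochondrial genes. mt-Co3 (-1.01) and mt-Atp8 (-0.49) did not pass.

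The rRNAs of the mitochondrial ribosome stood apart from the mRNAs. mt-Rnr1, the small rRNA, measured 6105 and 3519 CPM in WT-Control against 5086 and 5052 CPM in WT-EtOH (log2 change 0.08 ± 0.33, edgeR adjusted p = 0.892), and the groups overlapped. mt-Rnr2, the large rRNA, measured 7136 and 3613 CPM against 3449 and 3031 CPM (log2 change -0.73 ± 0.35, edgeR adjusted p = 0.16). The ratio of mt-Rnr2 to mt-Rnr1 counts ran from 1.17 and 1.03 in WT-Control to 0.678 and 0.6 in WT-EtOH, and from 1 and 0.86 in Elf4-/- Control to 0.551 and 0.517 in Elf4-/- EtOH. It was lower in the EtOH libraries of both genotypes. How rRNA was treated before sequencing was not stated.

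Among the tRNAs, mt-Ts1 measured 2330 and 1786 CPM in WT-Control against 799 and 393 CPM in WT-EtOH (log2 change -1.79 ± 0.38, edgeR adjusted p = 0.0108), and mt-Ta, mt-Tw, mt-Te, mt-Ty and mt-Tp passed as lower too, with log2 changes from -3.87 to -1.88. Without WT-Control replicate 1, mt-Te was at -1.86 and mt-Tp at -0.92, and mt-Ts1, mt-Ta and mt-Tp did not pass. mt-Tq (-1.65) and mt-Tt (-0.80) did not pass. The tRNA genes tested are only 67 to 71 bases long, and whether their counts measure mature tRNAs was not tested. mt-Ts1 shares 4.3% of its bases with mt-Co1 on the opposite strand. As for mt-Nd6, it is not known whether strand was used in counting, so reads from the opposite strand cannot be told apart.

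Of the 83 nuclear subunits, 21 were higher in WT-EtOH, 4 were lower and 58 did not pass. Of all genes, 10.8% were higher and 10.8% lower, so the number of subunits that fell is under the background. The 21 that rose together held 0.142% and 0.218% of the counts of nuclear genes in WT-Control against 0.515% and 0.545% in WT-EtOH. The other 62 held 0.927% and 1.17% against 1.11% and 1.14%. Both sums follow from the choice of the 21 in these WT libraries and are given as a description. WT-Control 1 had the highest mitochondrial share of the 8 libraries and the lowest share of the 21 genes, and WT-EtOH 2 had the lowest mitochondrial share and the highest share of the 21. WT-Control 1 was lower than WT-Control 2 for 80 of the 83 subunits, by a median of 0.58 on the log2 scale, and without WT-Control replicate 1 the median change of the 83 subunits was -0.03 and 13 members passed as higher.

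**Figure D3:**
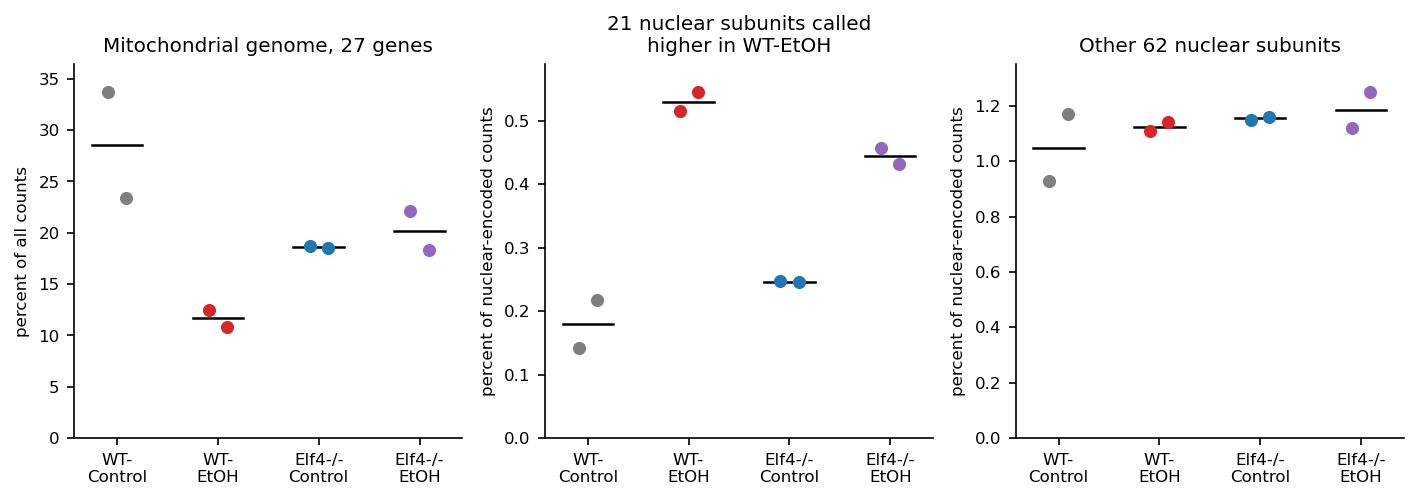
Summed levels by library (points, 2 per group, with the group mean as a bar, axes from zero). The mitochondrial genome, as percent of all counts, is lowest in WT-EtOH at 10.8% to 12.5% and similar in both Elf4-/- groups. The 21 nuclear subunits that were higher in WT-EtOH, as percent of the counts of nuclear genes, are also higher in Elf4-/- EtOH than in Elf4-/- Control, and the other 62 nuclear subunits stay between 0.927% and 1.25% in every library.

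In complex IV, 5 of 15 nuclear members were higher and none lower (median log2 change 0.33), against 10.8% of all genes in each direction. Ndufa4, once assigned to complex I, is counted here with complex IV, where it resides. Cox5a, a subunit found in all tissues, measured 17.2 and 33.9 CPM in WT-Control against 123 and 125 CPM in WT-EtOH, a log2 change of 2.28 ± 0.30 (edgeR adjusted p = 0.00223). Ndufa4 measured 72.2 and 118 CPM against 361 and 367 CPM (log2 change 1.94 ± 0.26, edgeR adjusted p = 0.00225). For both genes the 2 WT-EtOH libraries were nearly identical, far above the 2 WT-Control libraries. Of the exonic bases of Cox5a, 41.7% are shared with Gm26631 on the opposite strand, so part of its count could come from that gene.

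Cox7a2l, counted here with complex IV, measured 14 and 25.8 CPM in WT-Control against 63.1 and 80 CPM in WT-EtOH (log2 change 1.85 ± 0.30, edgeR adjusted p = 0.00412). Its paralog Cox7a2, the isoform used in liver, measured 39.9 and 73.6 CPM against 139 and 151 CPM (log2 change 1.35 ± 0.27, edgeR adjusted p = 0.00888). The muscle isoform Cox7a1 stayed at 1.64 to 3.31 CPM in the WT libraries and did not pass (log2 change -0.24). For Cox7a1 the groups overlapped.

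Cox6b2, known as the testis isoform of Cox6b, gave the largest fitted rise among the members (log2 change 2.96 ± 0.81, edgeR adjusted p = 0.0276) from very few reads, and lost its call when any 1 of the WT libraries was left out. It had 4 counts in WT-Control against 54 in WT-EtOH, a ratio of levels of 8.23 (95% exact interval for counting error only, 3.03 to 31.3). The common isoform Cox6b1 measured 177 and 279 CPM against 184 and 178 CPM (log2 change -0.33) and did not pass. Cox4i1 (log2 change 0.56), Cox6a1 (0.33) and Cox8a (0.39), the isoforms used in liver, did not pass either. Ndufa4l2, the paralog of Ndufa4 known to be induced by hypoxia, did not pass by edgeR, at 3.36 and 8.28 CPM against 1.39 and 2.34 CPM (log2 change -1.62, edgeR adjusted p = 0.0584).

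Complex V had 6 of 17 nuclear members higher and none lower (median log2 change 0.27), against 10.8% of all genes in each direction. Its catalytic subunit Atp5b measured 115 and 212 CPM in WT-Control against 604 and 630 CPM in WT-EtOH, a log2 change of 1.92 ± 0.30 (edgeR adjusted p = 0.0037). The F1 head holds 5 kinds of subunit, of which the alpha (Atp5a1, log2 change 1.13), beta (Atp5b) and delta (Atp5d, 1.14) passed as higher, whereas the gamma (Atp5c1, 0.27) and epsilon (Atp5e, -0.17) did not pass. Subunits of a single structure thus gave log2 changes from -0.17 to 1.92.

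The c ring gave the same contrast among genes whose mature proteins are the same. Atp5g3 measured 68.6 and 175 CPM in WT-Control against 406 and 412 CPM in WT-EtOH (log2 change 1.75 ± 0.37, edgeR adjusted p = 0.0103). Atp5g1 measured 60 and 142 CPM against 108 and 93.2 CPM (log2 change -0.01) and Atp5g2 measured 36 and 52.1 CPM against 49.6 and 49.3 CPM (0.17), and neither passed. Per kb of transcript Atp5g3 stood at 170 CPM in WT-Control against 573 in WT-EtOH. Atp5mpl (1.49) and Atp5pb (1.39), small and stalk subunits of the membrane part, were the remaining members of complex V that rose.

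**Figure D4:**
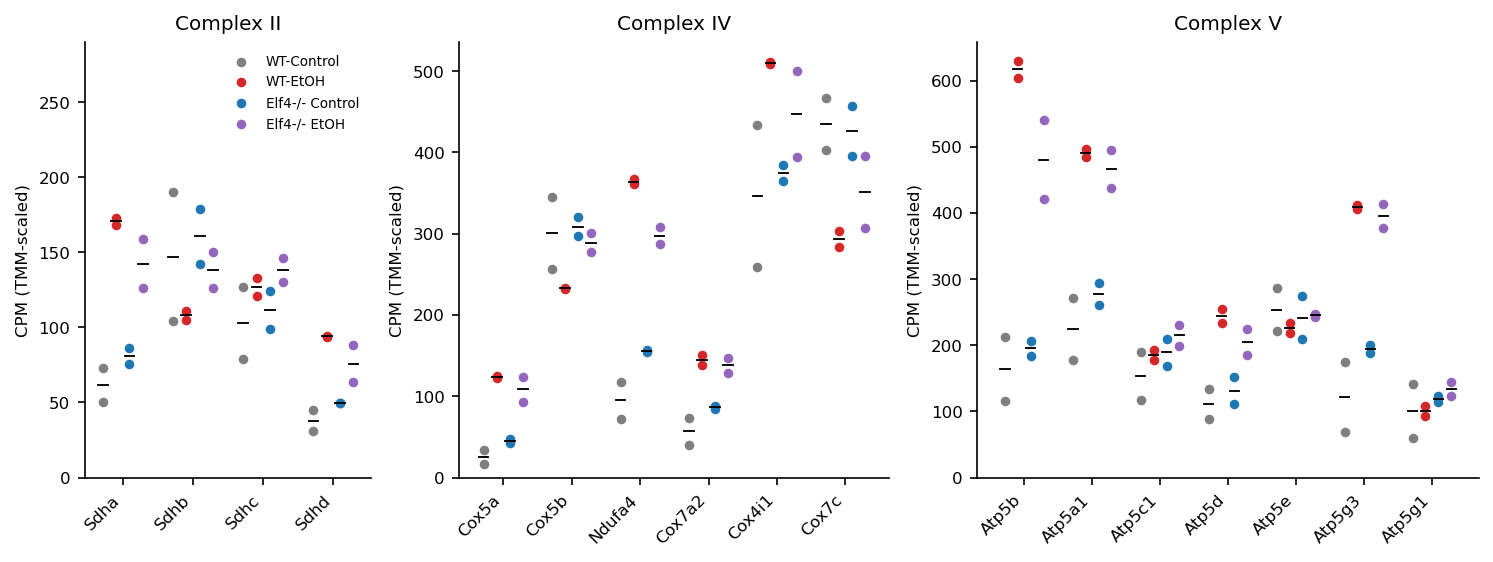
CPM of subunits of complexes II, IV and V in each library (points, 2 per group, with the group mean as a bar, axes from zero). Sdha and Sdhd, Cox5a and Ndufa4, and Atp5b and Atp5g3 are higher in both EtOH groups than in both control groups, and partners of the same complex, such as Sdhb, Cox5b, Atp5c1 and Atp5g1, are not.

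Complex II, also an enzyme of the citric acid cycle, was divided evenly. Sdha, its flavoprotein, measured 50.5 and 72.7 CPM in WT-Control against 168 and 173 CPM in WT-EtOH (log2 change 1.47 ± 0.23, edgeR adjusted p = 0.00379). Sdhd, a membrane anchor, measured 30.8 and 45.1 CPM against 93.8 and 94.1 CPM (log2 change 1.31 ± 0.24, edgeR adjusted p = 0.00577). Sdhb, the iron-sulfur subunit, measured 104 and 190 CPM against 111 and 105 CPM (log2 change -0.44 ± 0.28) and the anchor Sdhc measured 79.1 and 127 CPM against 133 and 121 CPM (0.31 ± 0.25). For Sdhb the groups overlapped, and neither gene passed.

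In complex III, 3 of 9 nuclear members were higher and none lower (median log2 change 0.38), against 10.8% of all genes in each direction. Uqcrh, the hinge protein that holds cytochrome c1, measured 48.1 and 84.3 CPM in WT-Control against 177 and 193 CPM in WT-EtOH (log2 change 1.48 ± 0.27, edgeR adjusted p = 0.00592). Cyc1, cytochrome c1 itself, measured 56.7 and 99.2 CPM against 146 and 144 CPM (log2 change 0.90 ± 0.26, edgeR adjusted p = 0.0344), and its change was 0.55 without WT-Control replicate 1, when it did not pass, and 1.36 without replicate 2. Uqcrq, which had the highest level per kb of all nuclear subunits at 1673 CPM in WT-Control, measured 562 and 794 CPM against 498 and 502 CPM (log2 change -0.44) and did not pass. Cycs, the mobile electron carrier between complexes III and IV, measured 115 and 111 CPM against 113 and 127 CPM (log2 change 0.08 ± 0.19, edgeR adjusted p = 0.783).

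In complex I, 5 of 37 nuclear members were higher and 4 lower (median log2 change 0.12), numbers near the background of 10.8% of all genes in each direction. Ndufb8, an accessory subunit of the membrane arm, measured 9.14 and 12 CPM in WT-Control against 27.7 and 30.5 CPM in WT-EtOH (log2 change 1.46 ± 0.23, edgeR adjusted p = 0.00359). Ndufs4, an accessory subunit needed for a late step of assembly, measured 30.6 and 38.5 CPM against 76 and 78.3 CPM (log2 change 1.16 ± 0.19, edgeR adjusted p = 0.00391). Ndufs6 (1.09), Ndufv1 (0.91) and Ndufa7 (0.76) also passed as higher, and none of these 3 did so without WT-Control replicate 1, where Ndufa7 was at 0.49.

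By edgeR the 4 nuclear subunits that fell were all in complex I, whereas DESeq2 also called Ndufa4l2 of complex IV lower. Ndufv3, an accessory subunit of the NADH-binding part, measured 107 and 135 CPM in WT-Control against 75.7 and 66.6 CPM in WT-EtOH (log2 change -0.77 ± 0.20, edgeR adjusted p = 0.025). Ndufb4 fell by 0.72, the core iron-sulfur subunit Ndufs8 by 0.71 and Ndufa10 by 0.66 on the log2 scale. All 4 lost their call when libraries were scaled by their totals alone, and also without WT-Control replicate 2 or either WT-EtOH library. Among the 7 nuclear core subunits, which carry the flavin and the iron-sulfur clusters, 1 rose (Ndufv1), 1 fell (Ndufs8) and 5 did not pass (median log2 change 0.08). Of all genes, 10.8% passed in each direction.

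None of the 8 complex I assembly factors passed in WT (log2 changes from -0.87 for Ndufaf3 to 0.81 for Ndufaf2). Of 41 tested assembly factors with other names, none rose and 4 fell, against 10.8% of all genes in each direction, so that the number that fell is near the background. The 4 were Pet100 (log2 change -1.33), Cox20 (-0.93) and Sco2 (-1.17), known for complex IV, and Uqcc3 (-0.91), known for complex III. Among the pseudogenes only Atp5pb-ps passed (log2 change 2.57), with 6 counts in WT-Control against 61 in WT-EtOH. Its parent gene Atp5pb rose too, and reads of the pair may have been exchanged.

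The second question was whether the Elf4-/- mice responded in the same way. These groups share no library with the WT groups. In Elf4-/- mice 2 of 119 members were higher with EtOH and none lower by edgeR (adjusted p under 0.05), against 1.71% of all genes higher and 1.18% lower. At an unadjusted p under 0.05 the counts were 21 higher and 2 lower, against 10.9% and 10.3% of all genes. DESeq2 called 10 members, against 5.64% of all genes. The 2 members were Cox5a, at 42.8 and 46.8 CPM in Elf4-/- Control against 124 and 92.7 CPM in Elf4-/- EtOH (log2 change 1.28 ± 0.29, edgeR adjusted p = 0.0478), and Atp5b, at 184 and 207 CPM against 540 and 421 CPM (log2 change 1.30 ± 0.30, edgeR adjusted p = 0.0498). Both lay just under the threshold, neither passed when the 4 libraries were fitted alone, and leaving out single libraries gave 0 to 7 calls.

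The 21 nuclear subunits that rose in WT were all higher in Elf4-/- EtOH than in Elf4-/- Control. Their median log2 change was 0.68 there, against 1.39 in WT, where the choice of these genes favours a large value. In 20 of the 21 the Elf4-/- libraries did not overlap, against 25.8% of all genes with higher, non-overlapping EtOH libraries. An unadjusted p under 0.05 was found for 17, against 10.9% of all genes higher. The 21 were chosen by their rise in WT and the genes at large were not, so a higher share is likely for any such choice. The share among all genes that rose in WT is not given here, and these counts are a description. Atp5pb (log2 change 1.07), Atp5g3 (1.03), Atp5mpl (0.96), Ndufa4 (0.94), Uqcrh (0.88), Ndufs6 (0.88) and Sdha (0.81) were among the highest in Elf4-/- mice. Across all 83 nuclear subunits the changes in the 2 genotypes had a Pearson correlation of 0.853 and a Spearman correlation of 0.926, over genes of the same libraries that are not independent, against 0.62 and 0.597 over all genes tested. Among genes averaging 100 counts or more, the Spearman correlation was 0.929 for 78 subunits and 0.714 for 7166 genes.

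**Figure D5:**
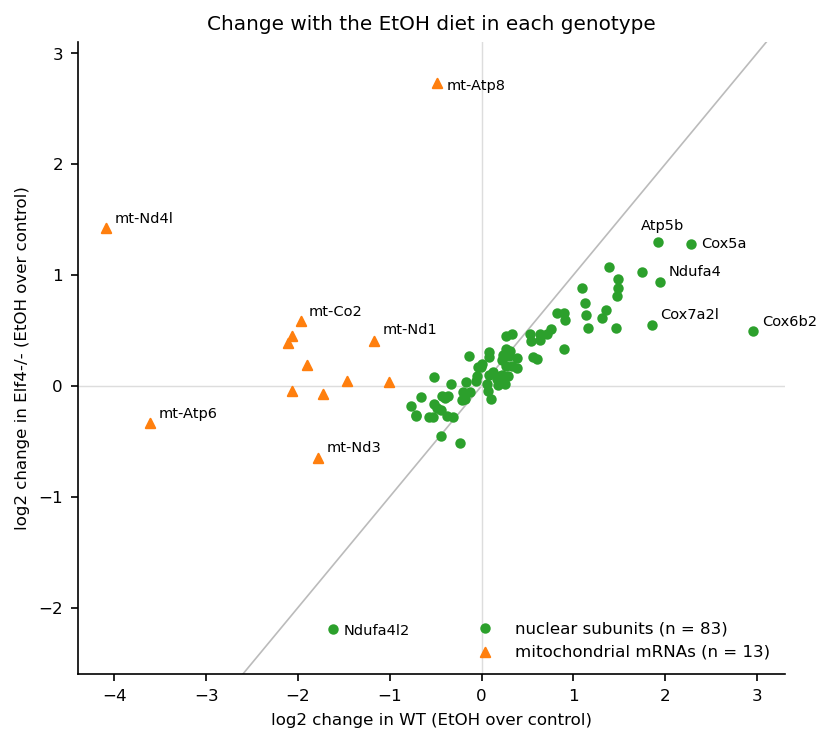
Log2 change with the EtOH diet in WT (x axis) and in Elf4-/- mice (y axis) for the 83 nuclear subunits (circles) and the 13 mitochondrial mRNAs (triangles), with a line of equal change. The circles follow a rising band that is flatter than the line, and the triangles lie left of zero on the x axis but on both sides of zero on the y axis.

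The mitochondrial transcripts did not follow. No mitochondrial gene passed in Elf4-/- mice, against 1.71% of all genes higher and 1.18% lower. Of the 13 mRNAs, 9 had positive and 4 negative changes, and their median log2 change was 0.19. mt-Co1 measured 51695 and 58063 CPM in Elf4-/- Control against 73077 and 51813 CPM in Elf4-/- EtOH (log2 change 0.19 ± 0.43), and mt-Cytb measured 36767 and 39518 CPM against 42771 and 30936 CPM (-0.05 ± 0.42). For both genes the groups overlapped. mt-Atp8 had the largest value, from 7.99 and 0.746 CPM to 28.7 and 32.8 CPM (log2 change 2.73, edgeR adjusted p = 0.108), and rests on few counts. Part of its bases are shared with mt-Atp6, which has an identical copy, so its value is uncertain for that reason too.

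The difference between the genotypes in the effect of EtOH was tested as an interaction. No member passed by edgeR in either direction, as for all genes (0% higher and 0% lower). At an unadjusted p under 0.05, 19 members had a positive interaction, 18 of them mitochondrial, and 6 a negative one, all nuclear, against 4.94% and 5.15% of all genes. DESeq2 called 10 members, all mitochondrial and all positive (mt-Nd1, mt-Nd2, mt-Nd4, mt-Nd5, mt-Nd6, mt-Cytb, mt-Co1, mt-Co2, mt-Te and mt-Ts1), against 0.700% of all genes. All 13 mRNAs had a positive value, with a median of 2.09. The interaction was 2.09 ± 0.61 for mt-Co1 (edgeR unadjusted p = 0.00661, adjusted p = 0.314) and 2.52 ± 0.55 for mt-Nd5 (edgeR adjusted p = 0.23). The tools thus differ on these genes, and by edgeR the genotypes were not shown to differ.

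The 21 nuclear subunits that rose in WT all had a negative interaction value, with a median of -0.62, none of which passed. The WT libraries that chose these genes also enter the interaction, so that direction follows in part from the choice. Cox7a2l (log2 interaction -1.30 ± 0.42), Ndufb8 (-0.94) and Ndufa4 (-1.0) had the smallest p among negative values, and Ndufaf7 (1.37), Ndufaf3 (0.88) and Ndufv3 (0.59) among positive nuclear ones.

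The genotypes were then compared under each diet. Under EtOH no member passed by edgeR, against 0.121% of all genes higher and 0.0214% lower. At an unadjusted p under 0.05, 20 members were higher in Elf4-/- EtOH and 1 was lower (Cox7a2l, log2 change -1.04), against 6.18% and 4.32% of all genes. Of the 20, 15 were mitochondrial and 12 were mRNAs. As counted, all 13 mRNAs were higher in both Elf4-/- EtOH libraries than in both WT-EtOH libraries, against 20% of all genes, with a median log2 change of 1.22. For mt-Co2, the smallest p, the log2 change was 1.22 ± 0.27 (edgeR adjusted p = 0.15). Its identical copy Gm28661 held 7770 counts in WT-EtOH 1, against 2809 for mt-Co2, so the separation of the groups is uncertain for mt-Co2. DESeq2 called 9 members, all mitochondrial and higher, against 1.27% of all genes. For the rRNAs the log2 changes were 0.24 (mt-Rnr1) and -0.03 (mt-Rnr2), and neither passed.

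The nuclear subunits had a median genotype change of 0.12 under EtOH, with values from -1.04 to 0.52. Cycs measured 158 and 166 CPM in Elf4-/- EtOH and 113 and 127 CPM in WT-EtOH (log2 change 0.44), and did not pass. The assembly factors Ndufaf7 (log2 change 0.86), Ndufaf5 (0.95), Ndufaf3 (0.66) and Ndufaf4 (0.46) had an unadjusted p under 0.05 and did not pass after adjustment.

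Under the control diet no member passed by edgeR, against 0.00715% of all genes higher and 0.00715% lower. At an unadjusted p under 0.05, 6 members were higher in Elf4-/- Control and 8 lower, against 4.37% and 2.94% of all genes, and the 8 were all mitochondrial. The median log2 change was -0.74 over the mitochondrial mRNAs and 0.15 over the nuclear subunits. Of the subunits 70 of 83 were positive, against 7188 of all 13993 genes. WT-Control 1 was lower than WT-Control 2 for 80 of the 83, and without WT-Control replicate 1 the median of the subunits was slightly negative. mt-Co2 had the smallest p again (log2 change -1.33 ± 0.27, edgeR adjusted p = 0.207), and the uncertainty from its copy Gm28661 holds here too. DESeq2 called 3 members, mt-Co2, mt-Nd5 and mt-Ty, all lower, against 0.50% of all genes. The genotype comparisons share their libraries with the diet comparisons, so their values are not separate evidence.

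Genes outside the chain that make or measure mitochondria were read from lists. Of 26 tested genes of the matrix and membranes outside the chain, 7 were higher in WT-EtOH and none lower (median log2 change 0.40), against 10.8% of all genes in each direction and a median of 0.01. They included the chaperones Hspd1 (1.52) and Hspe1 (1.61), the import receptor Tomm20 (1.52), and the succinyl-CoA ligase subunits Sucla2 (1.37) and Suclg1 (1.73). In Elf4-/- mice 3 of the 26 passed as higher, Hspd1 (1.21), Hspe1 (1.27) and Tomm20 (1.10), against 1.71% of all genes higher. Of 34 tested genes that express or copy the mitochondrial genome, 2 were higher in WT-EtOH and 5 lower, with a median log2 change of -0.19, numbers not far from the 10.8% of all genes in each direction. Among them, Mterf4 (-1.03) and Mterf3 (-0.76), of the mitochondrial termination factor family, and Fastk (-1.05), which has a form bound to mt-Nd6 RNA, fell, and Trmt10c (1.10), a subunit of the enzyme that cuts tRNAs at their 5′ end, rose. None of the 34 passed in Elf4-/- mice, a number near the share of all genes (1.71% higher and 1.18% lower).

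Of 14 tested regulators of nuclear respiratory genes, 1 rose in WT-EtOH and 3 fell (median log2 change 0.07), against 10.8% of all genes in each direction. Myc, a transcription factor of growth, rose from 1.48 to 11.6 CPM (group means, log2 change 2.96, edgeR adjusted p = 0.00295). Esrra, the nuclear receptor ERR alpha, fell from 73.2 to 33.4 CPM (log2 change -1.13 ± 0.22, edgeR adjusted p = 0.00794), and its coactivators Ppargc1a (-1.33) and Ppargc1b (-1.57) fell as well. Nrf1 (-0.12), Gabpa (0.28), Gabpb1 (-0.44), Yy1 (0.26), Creb1 (0.38), Ppara (0.45), Ppard (-0.48), Pprc1 (0.26), Sirt3 (-0.50) and Esrrg (1.02) did not pass. In Elf4-/- mice none of the 14 passed, near the share of all genes (1.71% higher and 1.18% lower). There Esrra was at -0.71, Ppargc1b at -1.29 and Ppargc1a at -0.08.

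Promoters were searched for the short motifs of such factors, in windows of 250 bases before to 50 after the gene start (RefSeq, GRCm38.p6), on both strands. The letters searched were CGCATGCGC for NRF1, AAGATGGCG for YY1, CCGGAAGT for ETS factors such as GABPA, TCAAGGTCA for ERR alpha and GGGGCGGGG for SP1, and no motif contains another. Of 83 nuclear subunits, 69 had a promoter sequence. The NRF1 letters were in 13% of these and 1.95% of 27025 genes, those for YY1 in 10.1% and 1.64%, for ETS in 7.25% and 4.31%, for ERR alpha in 2.90% and 0.466%, and for SP1 in 15.9% and 12.9%. The NRF1 letters were in none of the 18 subunits with a promoter that rose in WT-EtOH and in 9 of the 47 that did not pass. The ERR alpha letters were in 2 of the 18, Atp5g3 and Sdhd, and in none of the 47. The YY1 letters were in 2 of the 18 (Ndufs4 and Ndufs6) and 5 of the 47. Those for SP1 were in 3 of the 18 and 7 of the 47, and those for ETS in 1 of the 18 and 4 of the 47. Only exact matches were counted, and the differences between these small sets were not tested.

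These promoters are shown for the 2 rising genes with ERR alpha letters, a rising gene with YY1 letters and 2 genes without a called change that have NRF1 letters, Cox6a1 (log2 change 0.33) and Uqcr11 (-0.06). Capitals mark the motif letters on either strand. They lie on the minus strand at chr2:73911277-73911576 (Atp5g3), chr9:50603800-50604099 (Sdhd), chr13:114388045-114388344 (Ndufs4), chr5:115348909-115349208 (Cox6a1) and chr10:80406772-80407071 (Uqcr11).

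Atp5g3: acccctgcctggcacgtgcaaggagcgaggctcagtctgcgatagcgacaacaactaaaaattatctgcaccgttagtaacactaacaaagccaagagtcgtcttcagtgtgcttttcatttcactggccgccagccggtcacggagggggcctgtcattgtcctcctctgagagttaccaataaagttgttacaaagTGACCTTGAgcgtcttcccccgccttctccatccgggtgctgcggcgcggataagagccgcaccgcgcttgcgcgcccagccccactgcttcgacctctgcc
Sdhd: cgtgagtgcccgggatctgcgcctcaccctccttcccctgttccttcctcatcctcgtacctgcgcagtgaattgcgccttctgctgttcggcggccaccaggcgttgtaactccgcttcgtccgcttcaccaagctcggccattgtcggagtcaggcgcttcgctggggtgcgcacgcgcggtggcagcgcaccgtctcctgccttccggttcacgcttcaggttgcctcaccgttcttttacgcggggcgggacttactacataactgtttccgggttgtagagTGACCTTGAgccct
Ndufs4: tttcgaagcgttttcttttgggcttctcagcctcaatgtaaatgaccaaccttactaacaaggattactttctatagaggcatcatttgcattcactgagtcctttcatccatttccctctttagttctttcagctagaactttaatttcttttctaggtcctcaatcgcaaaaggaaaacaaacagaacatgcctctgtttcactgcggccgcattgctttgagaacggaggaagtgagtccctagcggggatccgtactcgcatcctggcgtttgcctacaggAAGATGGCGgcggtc
Cox6a1: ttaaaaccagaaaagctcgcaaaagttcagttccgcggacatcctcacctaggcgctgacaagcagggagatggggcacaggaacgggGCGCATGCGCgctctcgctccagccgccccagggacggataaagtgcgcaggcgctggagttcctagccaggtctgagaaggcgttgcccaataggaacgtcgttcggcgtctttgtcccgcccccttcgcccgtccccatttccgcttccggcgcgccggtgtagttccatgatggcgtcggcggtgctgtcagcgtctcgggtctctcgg
Uqcr11: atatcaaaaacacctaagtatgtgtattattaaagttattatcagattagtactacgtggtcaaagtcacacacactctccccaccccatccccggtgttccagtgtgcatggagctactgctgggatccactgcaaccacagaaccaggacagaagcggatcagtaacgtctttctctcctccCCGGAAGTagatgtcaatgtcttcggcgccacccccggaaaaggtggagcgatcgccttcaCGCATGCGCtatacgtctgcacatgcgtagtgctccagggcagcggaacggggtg

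Sequence features divided the risers from the rest very little. The 21 subunits that rose had a median transcript length of 714 bases and a median GC content of 50.5%, against 694 bases and 52.1% for the 58 that did not pass, and the ranges overlapped almost fully. Across the 83 subunits the Spearman correlation of the WT change was 0.0768 with transcript length, 0.244 with the length of the 3′ untranslated region and -0.108 with GC content, over genes that are not independent. Respiratory chain genes are short as a class, with a median of 732 bases against 2756 for 12004 protein-coding genes tested. Exonic bases shared with another gene had a median of 0% in both sets.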

How the data were processed

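Liver RNA was sequenced in 8 libraries, 2 in each of 4 groups, with paired-end reads on an Illumina HiSeq. The authors aligned reads to mm10 with HISAT2, handled alignments with SAMtools, counted reads per gene with HTSeq and tested them with DESeq2, and deposited raw counts per gene. Versions, annotation, strand setting and the handling of reads with several origins were not given in the sources used here. From the counts, edgeR 4.0.16 (R 4.3.3, limma 3.58.1) fitted all 8 libraries with a term for each group, after filterByExpr (13993 of 19267 genes kept) and TMM scaling, and its quasi-likelihood test was applied to 5 contrasts, its p-values being adjusted by Benjamini-Hochberg across every tested gene and called under 0.05. The steps were tested on simulated data. DESeq2 1.42.0 was an alternative, as were other scalings, filters, a replicate block, fits of 4 libraries, and fits that left out each library. CPM used TMM-scaled totals. Positions and copies came from GENCODE M21 (GRCm38, the same assembly as mm10), with copies aligned by edlib 1.3.9.post1 in Python 3.11.15.

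The members and the gene lists were chosen with earlier results of these data known. Named genes were the mitochondrial mRNAs and rRNAs, the Sdh genes, Cyc1, Cycs, the tissue isoform sets, the regulators, and for each contrast the 5 largest nuclear rises and 5 largest falls that passed, averaging 50 counts or more and with no overlap of groups, or the 3 with the smallest p where fewer than 3 passed. Other genes named were chosen after their values were seen. Intervals cover counting error only.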

Additional observations from a re-analysis of the deposited data

Results flagged for a closer look

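In 3 genes both EtOH libraries moved below both control libraries in WT mice and above both in Elf4-/- mice, and the interaction tests did not pass by edgeR. In Elf4-/- mice alone, 25.8% of all genes had both EtOH libraries above both control libraries. The share of all genes with the whole pattern is not given here, so the count of 3 is a description. For mt-Co2 the log2 changes were -1.97 in WT and 0.58 in Elf4-/- mice, a difference of 2.55 (edgeR adjusted p = 0.129). The counts of mt-Co2 are uncertain because of its identical copy Gm28661. For mt-Nd1 they were -1.17 and 0.40, a difference of 1.57 (edgeR adjusted p = 0.346). For the complex I assembly factor Ndufaf7 they were -0.56 and 0.81, a difference of 1.37 (edgeR adjusted p = 0.314). Groups of 2 libraries are too small to test for a single library that stands apart.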

How the results depend on the processing

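No result changed direction with a call under any alternative run. In WT mice 42 members were called, and 11 to 47 when single libraries were left out, the lowest without WT-EtOH replicate 2. With library totals alone 36 rose and 15 fell, the medians were -1.47 for mitochondrial mRNAs and 0.65 for nuclear subunits in WT, the nuclear medians were -0.11 (genotype under EtOH), 0.37 (genotype under control diet) and -0.54 (interaction), and the mRNA median of the interaction was 1.62. Leaving out single libraries moved the nuclear median from -0.03 to 0.57 in WT, from -0.09 to 0.50 between genotypes under the control diet and from -0.38 to 0.19 for the interaction; WT-Control replicate 1 set the ends -0.03, -0.09 and 0.19. In Elf4-/- mice the 2 calls became 10 with DESeq2 and 0 with library totals alone, the replicate block or the 4 libraries alone, and 0 to 7 with single libraries left out. From 0 calls, DESeq2 gave 9 (genotype under EtOH), 3 (genotype under control diet) and 10 (interaction), single libraries left out gave 0 to 6, 0 to 1 and 0 to 4, and no filter gave 1 for the interaction. Counting 13 mRNAs only put the mitochondrial share in Elf4-/- Control at 17.6%. Same-numbered libraries had correlations of -0.134 to 0.114, so the numbers were not taken as pairs, and with the replicate block 39 members passed in WT (21 higher, 18 lower). A fit with 1 library in a group assumes that it varies like the others. Adding the chromosome 1 copies to their genes was chosen after seeing the data. Low counts limit mt-Atp8, mt-Nd4l and Cox6b2. The causes of these changes were not tested.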
